A study of Rattus norvegicus with 8 samples.

Results

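The loci described here encode the cytochrome P450 enzymes (Cyp) of families 1 to 4 and the enzymes that conjugate their products: UDP-glucuronosyltransferases (Ugt1, Ugt2), sulfotransferases (Sult) and soluble glutathione S-transferases (Gst). A locus was included where the deposited gene table gave it a single symbol of these families and its estimated fragments summed to at least 80 over the 8 libraries. That left 53 loci with 50 symbols, out of 91 single-symbol loci of these families and 52753 loci in the table. The 38 family loci under the threshold had sums from 0 to 72, the nearest being Sult1d1 (72), Cyp2ab1 (68.0) and Gsta2 (56). The members just inside it were Cyp4a2 (83), Cyp2c24 (95), Cyp2r1 (111) and Sult5a1 (129). The members fall into Cyp1 (2 loci), Cyp2 (14), Cyp3 (3), Cyp4 (6), Ugt1 (1), Ugt2 (5), Sult (8), Gsta (3), Gstk (1), Gstm (7), Gstp (1) and Gstt (2). Ugt2b10, Cyp2d4 and Sult1c2a are each on 2 loci, which are told apart by the locus number of the table. No Gsto gene had a locus of its own.

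Xenobiotic metabolism is usually described in phases. Phase I enzymes, chiefly P450s in the endoplasmic reticulum, oxidise a foreign or endogenous lipophilic compound with electrons from P450 reductase. Phase II transferases then attach glucuronic acid, sulfate or glutathione, and efflux pumps export the conjugate. Enterocytes, the absorptive cells of the villus, meet food chemicals first, and their receptors AhR (dioxin receptor), PXR, CAR and the oxidant sensor Nrf2 induce many of these genes. The families also hold enzymes of endogenous substrates, among them Cyp2r1 (vitamin D), the Cyp4 enzymes (fatty acids) and Sult2b1 (cholesterol and other hydroxysteroids), so the name xenobiotic covers only part of what they do.

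The study sequenced stranded mRNA from the full length of the small intestine of Sprague Dawley rats at postnatal day 21. It compared 4 libraries of animals with cystic fibrosis (CF), the disease caused by loss of the CFTR anion channel, with 4 wild-type (WT) libraries. The labels name neither the CF allele nor sex or litter, nor do they state whether every library is from a separate animal. The p-values therefore measure only the variation among the 8 libraries, part of which may be technical. Libraries carry the numbers 0 to 3 within a group, and values are listed in that order.

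Libraries held 18.6 to 20.9 M fragments in CF and 15.3 to 20.8 M in WT. Cftr mRNA averaged 97.3 ± 6.40 CPM (fragment counts scaled to a common library size, mean ± SD, n = 4) in CF libraries against 94.8 ± 14.7 CPM in WT libraries (log2 fold change 0.04, SE 0.12, edgeR adjusted p = 0.916), so its transcript level did not separate the groups and gives no check of the labels. CF library 0 stood apart in its absorptive cell genes. It was the lowest of the 8 libraries for 13 of 17 enterocyte markers and for 8 of 8 ileal enterocyte markers, none of which was at 0. The summed level of the 17 enterocyte markers was 12730, 36280, 25010 and 26980 CPM in the CF libraries and 29320, 21880, 19270 and 33250 CPM in WT. Of the liver markers, Ahsg was at 0 in all 8 libraries and Alb at 0.183 CPM or less, while Cps1, which the intestine also makes, was at 530 to 1442 CPM. Only 4 of 10 liver markers were deep enough to be tested. Of these, 2 ranged 5-fold or more among the WT libraries, and the source of their mRNA was not tested. Pancreatic acinar mRNAs such as Ctrb1 were seen in CF library 2 (34.9 CPM) and WT library 1 (9.23 CPM), with 0.605 CPM or less in the others. Of the 19 marker lists only the red cell list held a locus past the edgeR test, where 0.165% of all tested loci were called. This was Hba-a2, which fell by 1.07 on the log2 scale (adjusted p = 0.0339). DESeq2 called 17 loci in 9 of the lists, where it called 3.02% of its loci. All CF libraries exceeded all WT libraries in 5 of 9 goblet cell markers and 2 of 5 smooth muscle markers, beside 4.86% of all tested loci. At an unadjusted p under 0.05 (edgeR), 4 of 5 endothelial and 4 of 4 red cell markers were lower in CF, beside 7.21% of all tested loci. All CF libraries were below all WT libraries in the 4 red cell markers, beside 3.91%. This is whole tissue, so fewer cells of a type and less RNA per cell cannot be told apart.

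Per unit of transcript length, Gstp1, the pi-class glutathione transferase, was the most abundant member in these tissues at 704 ± 100 FPKM (fragments per kilobase of transcript, scaled to library size; SD, n = 4) in CF and 519 ± 61.6 FPKM in WT. The Ugt2b10 locus XLOC_015193 followed with a mean of 260 FPKM over the 8 libraries, then Ugt1a8 (234 FPKM), Gsta5 (157 FPKM), Sult2b1 (152 FPKM) and Cyp3a9 (134 FPKM). The 2 leading P450s of family 2 were Cyp2j4 (78.2 FPKM) and Cyp2j10 (72.9 FPKM), members of a subfamily that acts on arachidonic acid. At the other end Cyp4a2 had a mean of 0.281 FPKM and Sult6b1 0.345 FPKM. XLOC_015193 (153 to 423 FPKM), Ugt1a8, Gsta5, Sult2b1 and Cyp3a9 spanned overlapping ranges, so their order is not firm. Close paralogs such as the Ugt2b, Cyp2d, Cyp3a, Gsta and Gstm genes can share fragments, and how the authors divided these is not given in the sources used here, so values of single members in these groups are uncertain. Estimated fragments were also fractional at, for example, Cyp2t1, Cyp2w1, Sult2b1, Cyp4a1 and Cyp4b1, so the same caution holds for these loci. The members' summed level was 2498 ± 729 FPKM in CF and 2271 ± 278 FPKM in WT, and the groups overlapped.

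**Figure D1:**
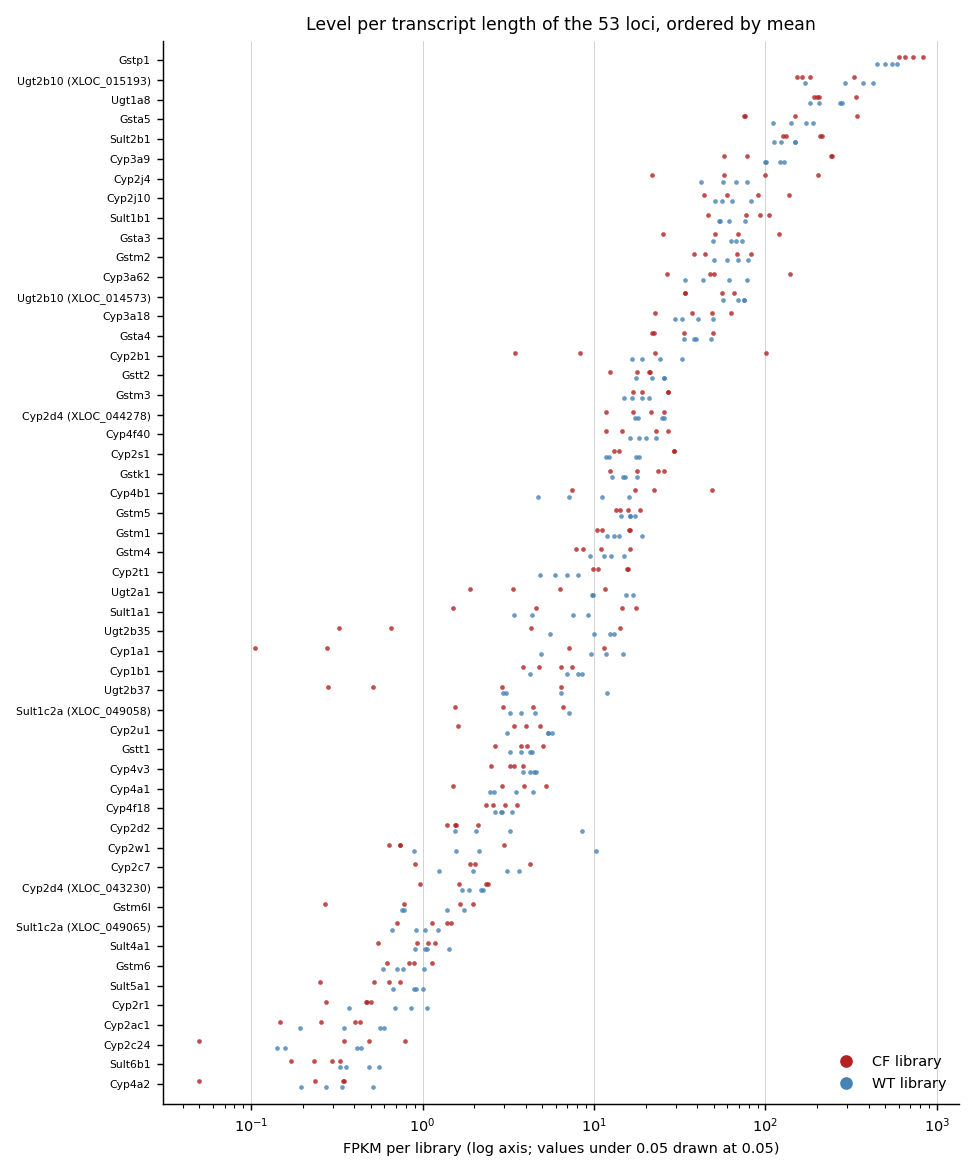
FPKM of each of the 53 loci in each library (points, red CF and blue WT, n = 4 each) on a log axis, ordered by the mean over the 8 libraries; values under 0.05 are drawn at 0.05. Gstp1 heads the order with a mean of 612 FPKM and Cyp4a2 ends it at 0.281 FPKM.

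None of the 53 loci passed the test of CF against WT. All 53 were deep enough to be tested, and the quasi-likelihood test of edgeR, adjusted by Benjamini-Hochberg over all 16941 tested loci, called 0 of them at 0.05, where 0.165% of all tested loci were called. DESeq2 called 3 members (Cyp2t1, Gstp1 and the Ugt2b10 locus XLOC_015193), where it called 3.02% of its loci, and limma-voom called 0. Without the low-count filter edgeR called 4 members, where it called 1.38% of loci. The lowest adjusted p by edgeR was 0.0689, for Cyp2t1. At an unadjusted p under 0.05 stood 10 of 53 members (18.9%), beside 15.1% of all tested loci. Of these, 3 were higher in CF (7.94% of all tested loci) and 7 lower (7.21%). The 4 CF libraries lay apart from the 4 WT libraries in 5 members (9.43%), near the 8.78% of all tested loci. In 2 of them, Cyp2t1 and Gstp1, CF was higher (4.86% of all tested loci), and in 3, Cyp4v3, Sult6b1 and the Ugt2b10 locus XLOC_014573, CF was lower (3.91%). On the authors' FPKM the groups overlapped for Cyp4v3 and for XLOC_014573. Fitted log2 fold changes were above 0 in 21 members and below 0 in 32, with a median of −0.06 against −0.005 over all tested loci. That median was 0.06 without CF library 0 and −0.31 without CF library 1. By family the medians ran from −1.21 in Ugt2 and −0.77 in Cyp1 to 0.42 for Gstk1 and 0.50 for Gstp1. Those of Cyp2 (−0.12), Cyp3 (0.19), Cyp4 (−0.02), Ugt1 (−0.01), Sult (0.05), Gsta (0.00), Gstm (−0.06) and Gstt (−0.22) lay between.

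**Figure D2:**
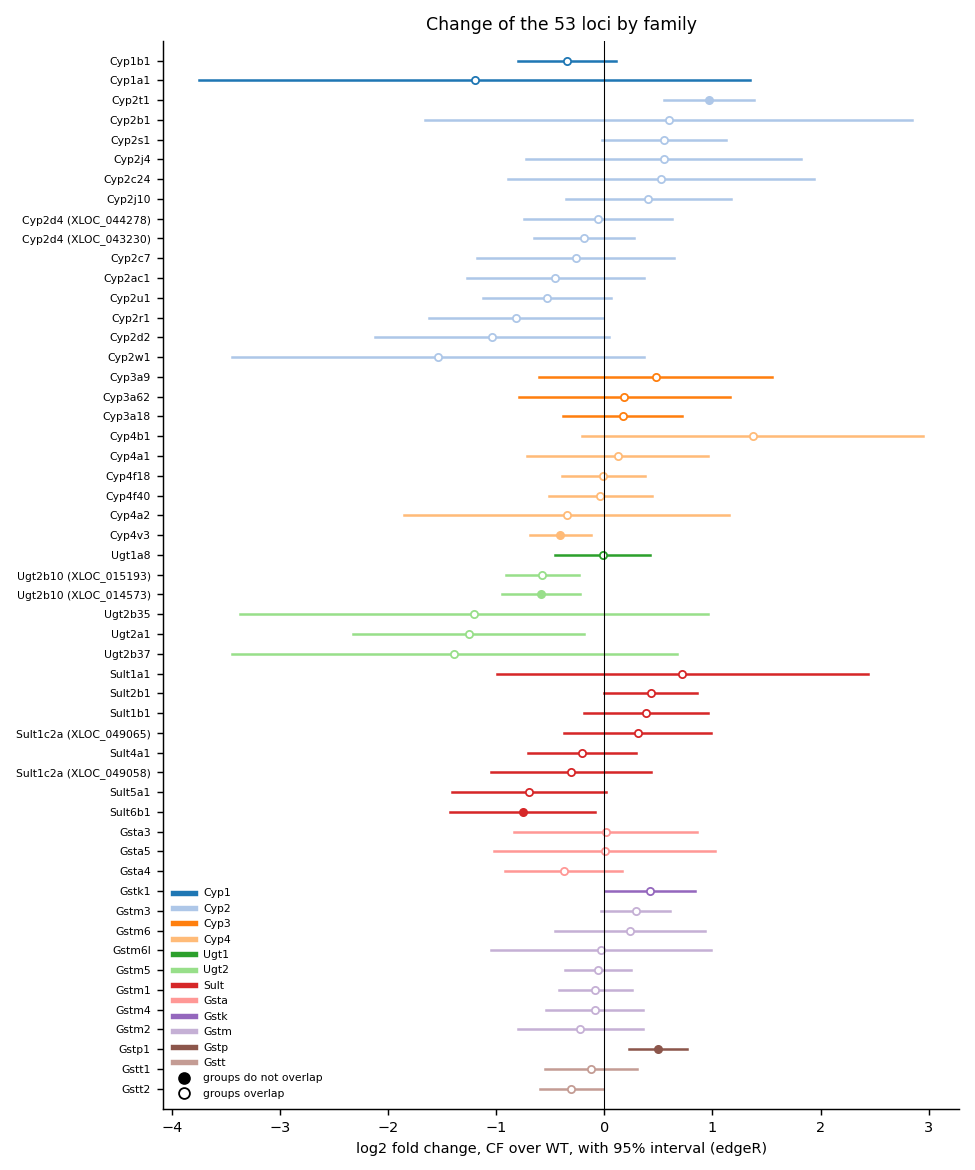
Log2 fold change of CF over WT for each locus with its 95% interval, derived from the F statistic of the edgeR test, grouped by family. Filled points mark loci whose 4 CF and 4 WT libraries do not overlap. The 5 Ugt2 loci all lie left of 0, and the widest intervals belong to Cyp1a1, Cyp2b1, Ugt2b35 and Ugt2b37.

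The Cyp1 enzymes oxidise planar aromatic compounds and are textbook targets of AhR. Cyp1a1 (chromosome 8, 62472087 to 62478147, Rnor_6.0) was at 0.289, 20.1, 30.1 and 0.997 CPM in the CF libraries and at 26.6, 35.2, 40.7 and 14.7 CPM in WT. CF libraries 0 and 3 were far below every WT library, whereas CF libraries 1 and 2 lay inside the WT range. The highest CF library exceeded the lowest 104-fold, and the log2 fold change of −1.20 had a 95% interval from −3.75 to 1.35 (adjusted p = 0.651). Without CF libraries 0 and 3, a setting chosen after the values were seen, it was −0.23, without CF library 2 −2.06, and by limma-voom −3.0003 (adjusted p = 0.319). Cyp1b1, the second AhR target of the family, was at 18.1, 23.6, 28.0 and 21.9 CPM in CF and at 33.9, 32.1, 32.3 and 17.8 CPM in WT. WT library 3 was the lowest of all, so the groups overlapped (log2 fold change −0.34, adjusted p = 0.458).

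Transcripts of 2 further AhR targets were low in the same CF libraries. Ahrr, the AhR repressor and itself an AhR target, was at 4.58, 11.3, 12.5 and 5.19 CPM in CF and at 16.6, 18.5, 14.99 and 10.99 CPM in WT (log2 fold change −0.87, SE 0.33, adjusted p = 0.271). Tiparp, a further AhR target named after its values were seen, was at 23.0, 39.3, 29.3 and 23.6 CPM in CF and at 31.1 to 34.1 CPM in WT. Ahr itself was at 33.7, 36.1, 45.4 and 32.5 CPM in CF and at 35.6 to 42.6 CPM in WT. Its partner Arnt was at 39.1 to 42.8 CPM in CF and 39.2 to 49.1 CPM in WT. CF libraries 0 and 3 were both below all WT libraries in Cyp1a1, Ahrr, Tiparp and Ahr, as in 15.4% of all tested loci. This was not so in Cyp1b1 or Arnt. The pair was picked out after the members' values were seen. Both were also below in 7 of 19 nuclear receptors and sensors, Ahrr, Tiparp and Ahr among them. The counts were 9 of 22 other oxidation and hydrolysis enzymes and 5 of 12 drug transporters. They were 2 of 10 redox and heme genes, 2 of 19 cofactor and transferase genes and 1 of 15 Nrf2 targets.

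Within Cyp2 the locus that came nearest to the threshold was Cyp2t1 (chromosome 1, 83964542 to 83977649), a P450 of little studied function. It was at 26.0, 21.6, 24.5 and 24.1 CPM in CF and at 8.83, 14.8, 9.78 and 15.8 CPM in WT. Its estimated fragments were fractional (540.121 in CF library 0), and how they were divided is not given in the sources used here. All 4 CF libraries were above all 4 WT libraries, and the log2 fold change of 0.97 had a 95% interval from 0.56 to 1.38 (SE 0.19, adjusted p = 0.0689). Across the alternatives tried, its adjusted p ranged from 9.03e-06 to 0.227, and its log2 fold change without any 1 library lay between 0.84 and 1.11.

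Cyp2j4, which is abundant in rat enterocytes, was at 47.8, 383, 193 and 144 CPM in CF and at 87.6, 122, 140 and 175 CPM in WT (log2 fold change 0.55, adjusted p = 0.684). Cyp2j10 showed the same order among the CF libraries, with 36.2, 125, 74.8 and 60.2 CPM against 45.4, 52.0, 54.1 and 72.0 CPM in WT (log2 fold change 0.41, adjusted p = 0.607). In both, CF library 0 was the lowest of the 8 and CF library 1 the highest, so the CF libraries enclosed the WT range. Without CF library 1 the value of Cyp2j4 was −0.03 and that of Cyp2j10 0.03.

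Cyp2w1, a P450 known from fetal gut and colon tumours, was at 12.3, 4.01, 3.35 and 4.29 CPM in CF and at 47.1, 11.5, 7.22 and 4.30 CPM in WT. WT library 0 alone set most of its log2 fold change of −1.54 (adjusted p = 0.423), which was −0.36 without that library. Cyp2r1, a vitamin D 25-hydroxylase, was low everywhere, at 0.386, 0.508, 0.585 and 0.648 CPM in CF and 1.04, 0.853, 1.35 and 0.478 CPM in WT (log2 fold change −0.82, SE 0.37, adjusted p = 0.325). WT library 3 lay among the CF libraries. Cyp2s1, an epithelial P450, was at 40.8, 104, 80.2 and 57.3 CPM in CF and at 41.2 to 57.0 CPM in WT (log2 fold change 0.55, adjusted p = 0.342).

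The locus named Cyp2b1 needs care. Cyp2b1 is the rat P450 best known for its induction by phenobarbital through CAR. The table places this locus on chromosome 7 beside Sqle and Mtss1, while RefSeq lists Cyp2b1 next to Cyp2s1 and Cyp2b2, so which gene its fragments came from is uncertain. It was at 6.85, 232, 37.8 and 23.0 CPM in CF and at 68.4, 45.0, 28.1 and 57.0 CPM in WT. CF library 1 was above every WT library and CF libraries 0 and 3 below, and the 95% interval of its log2 fold change of 0.59 ran from −1.66 to 2.85. The other Cyp2 members, Cyp2ac1, Cyp2c7, Cyp2c24, Cyp2d2, the 2 Cyp2d4 loci and Cyp2u1, had log2 fold changes from −1.04 (Cyp2d2) to 0.52 (Cyp2c24) and overlapping groups.

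Cyp3a enzymes are the main drug-oxidising P450s of the gut wall, and PXR induces them. Cyp3a9 was at 134, 463, 164 and 629 CPM in CF and at 255, 280, 233 and 232 CPM in WT. The 4 WT libraries were within a narrow band, while CF libraries 1 and 3 lay above it and CF libraries 0 and 2 below it. Its log2 fold change was 0.47 (SE 0.47, adjusted p = 0.678), and without CF library 3 it was 0.02. Cyp3a62, the form known as intestinal in the rat, was at 49.9, 190, 76.8 and 87.2 CPM in CF against 123, 67.5, 58.2 and 107 CPM in WT, and Cyp3a18 at 58.0, 117, 79.6 and 125 CPM against 109, 74.5, 67.5 and 86.6 CPM. CF library 0 was the lowest of the 8 for all 3, and their log2 fold changes were 0.19 and 0.17 for the last 2. The gene for PXR, Nr1i2, was at 151 ± 13.3 CPM in CF libraries against 150 ± 7.31 CPM in WT libraries (log2 fold change 0.00).

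The Cyp4 enzymes hydroxylate fatty acids and related lipids near the end of the chain. Cyp4v3 (chromosome 16, 50111306 to 50136727) was at 12.3, 12.5, 11.3 and 10.6 CPM in CF and at 12.9, 16.01, 17.3 and 15.7 CPM in WT. All CF libraries were below all WT libraries, narrowly so for CF library 1 and WT library 0, and the log2 fold change was −0.41 (SE 0.13, adjusted p = 0.193). Cyp4b1, which also oxidises fatty acids and furan toxins, was at 20.2, 58.6, 68.1 and 184 CPM in CF and at 19.7, 39.3, 17.5 and 51.6 CPM in WT. CF libraries 1, 2 and 3 were above all WT libraries and CF library 0 was not. Its log2 fold change of 1.37 (adjusted p = 0.389) was 0.62 without CF library 3. Cyp4b1 and Cyp4a1 have the same span (chromosome 5, 134492756 to 134551678) and fractional fragment estimates, so their separate values are uncertain.

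Cyp4f40 was at 45.0, 76.2, 83.6 and 50.8 CPM in CF and at 55.5 to 82.2 CPM in WT (log2 fold change −0.04). Cyp4a1, Cyp4a2 and Cyp4f18 had log2 fold changes of 0.12, −0.35 and −0.01. Cyp4a2 had no fragment in CF library 0, which allows up to 0.145 CPM there when 3 fragments are taken as the limit of a count of 0.

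The UDP-glucuronosyltransferases were Ugt1a8 and the 5 Ugt2 loci. The locus named Ugt1a8 spans the whole Ugt1 region (chromosome 9, 95161157 to 95302822), so the alternative start exons of that region were not separated. It was at 421, 672, 419 and 509 CPM in CF and at 537, 392, 456 and 656 CPM in WT, with a log2 fold change of −0.01 (95% interval −0.45 to 0.43). The Ugt2 family, whose enzymes glucuronidate steroids, bile acids and phenols, had a negative log2 fold change at all 5 loci. Its summed level was 220, 362, 304 and 235 CPM in the CF libraries and 365, 439, 426 and 519 CPM in WT, so all 4 CF sums were below all 4 WT sums, CF library 1 narrowly. On the authors' FPKM the sums overlapped, from 201 to 429 FPKM in CF and from 261 to 539 FPKM in WT. That sum is dominated by the 2 Ugt2b10 loci, and no test was made on it.

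The abundant Ugt2b10 locus XLOC_015193 was at 157, 221, 194 and 161 CPM in CF and at 217, 291, 266 and 318 CPM in WT. On this scale only CF library 1 reached above the lowest WT library. On the authors' FPKM, CF libraries 1 (331 FPKM) and 3 (182 FPKM) were above WT library 2 (170 FPKM). The 95% interval of the log2 fold change of −0.58 for this locus ran from −0.91 to −0.24 (SE 0.15, adjusted p = 0.144). The second Ugt2b10 locus, XLOC_014573, was at 58.4, 92.6, 87.2 and 64.6 CPM in CF and at 111, 117, 94.99 and 131 CPM in WT. Its groups did not overlap, and its log2 fold change was also −0.58 (SE 0.16, adjusted p = 0.155). The table gives both loci the same span (chromosome 14, 22724070 to 22826577), so they are not independent observations. Without CF libraries 0 and 3 the 2 values were −0.40 and −0.33.

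Ugt2a1, Ugt2b35 and Ugt2b37 share another span (chromosome 14, 22192970 to 22620414) and were more variable. Ugt2a1 was at 3.42, 17.5, 11.4 and 6.78 CPM in CF and at 16.3, 16.5, 30.5 and 29.8 CPM in WT (log2 fold change −1.25, SE 0.47, adjusted p = 0.270). Ugt2b35 was at 0.627, 20.5, 6.76 and 1.30 CPM in CF and at 15.8, 9.33, 22.3 and 19.4 CPM in WT (log2 fold change −1.21, SE 0.93, adjusted p = 0.578). Ugt2b37 was at 0.530, 9.93, 5.21 and 1.05 CPM in CF and at 4.99, 5.42, 12.01 and 21.1 CPM in WT (log2 fold change −1.39, SE 0.88, adjusted p = 0.500). In all 3, CF libraries 0 and 3 were below every WT library. Without CF libraries 0 and 3 the log2 fold changes were −0.68, −0.29 and −0.52, and the family median was −0.40.

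The sequences before the starts of Ugt2b35 and Ugt2b37 are shown because these 2 genes had the widest spread among the CF libraries within Ugt2. Each is the 250 bases upstream of the gene start on the plus strand, 5′ to 3′, from RefSeq (GRCr8, chr14:21208191-21208440 and chr14:21171886-21172135). Capitals mark the longest run the 2 have in common, 31 bases that begin 91 and 70 bases before the starts.
Ugt2b35: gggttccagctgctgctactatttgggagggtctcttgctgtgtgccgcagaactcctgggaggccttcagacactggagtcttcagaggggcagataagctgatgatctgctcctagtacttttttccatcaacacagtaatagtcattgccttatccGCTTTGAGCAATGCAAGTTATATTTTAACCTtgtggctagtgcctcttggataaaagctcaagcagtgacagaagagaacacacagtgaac
Ugt2b37: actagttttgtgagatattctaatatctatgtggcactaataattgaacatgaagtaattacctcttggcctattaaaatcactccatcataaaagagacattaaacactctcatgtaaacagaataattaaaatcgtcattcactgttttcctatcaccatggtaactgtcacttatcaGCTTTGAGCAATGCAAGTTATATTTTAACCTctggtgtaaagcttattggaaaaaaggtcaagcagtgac
Over the 300-base windows that also take in 50 bases after the start, the 2 were identical at 184 of 326 aligned positions (56.4%). The share was 47.9% for Ugt2b35 with Ugt2b10 and 49.9% for Ugt2b37 with Ugt2b10. Gstp1, of another family, gave 42.0%, 42.2% and 45.1% with Ugt2b35, Ugt2b37 and Ugt2b10 in the same alignment. Neither the Ugt2b35 nor the Ugt2b37 window held the AhR response core GCGTG, the antioxidant response core TGACNNNGC or the AP-1 site TGACTCA on either strand.

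**Figure D3:**
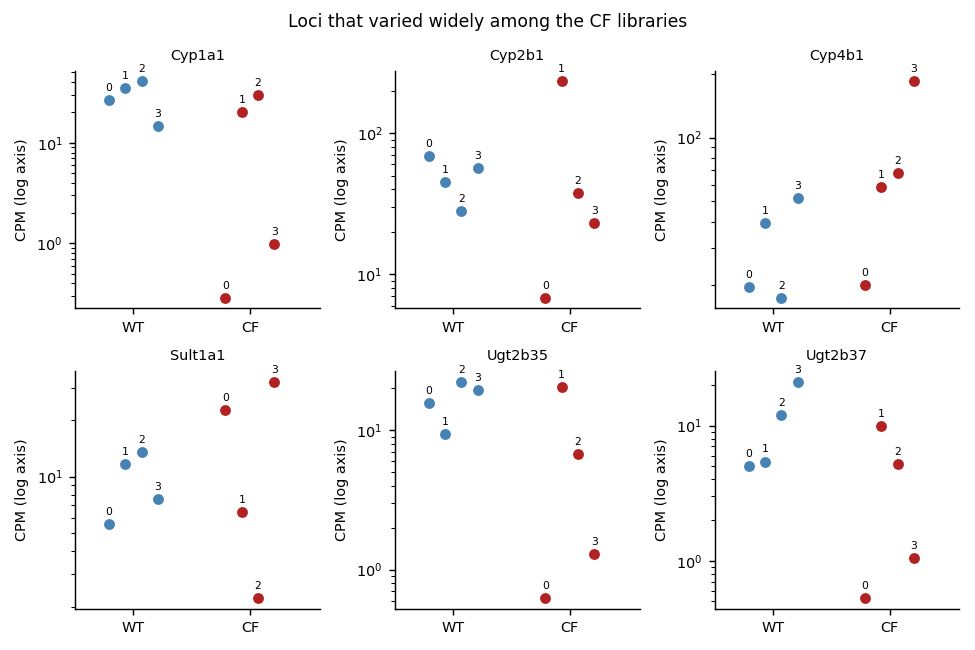
CPM per library on log axes for 6 loci with a wide range among the CF libraries (points, numbered by library; blue WT, red CF). CF libraries 0 and 3 sit below all WT libraries for Cyp1a1, Cyp2b1, Ugt2b35 and Ugt2b37 and above them for Sult1a1.

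The sulfotransferases transfer sulfate from PAPS to hydroxyl groups. Sult2b1, the hydroxysteroid form and the most abundant of them, was at 137, 271, 232 and 228 CPM in CF and at 136, 147, 168 and 192 CPM in WT. CF libraries 1, 2 and 3 were above all WT libraries, and the log2 fold change was 0.43 (SE 0.20, adjusted p = 0.331). Sult1b1, which sulfates phenols and thyroid hormones, was at 104, 86.9, 57.7 and 142 CPM in CF and at 70.3, 58.5, 74.2 and 96.2 CPM in WT (log2 fold change 0.38, adjusted p = 0.508). Sult1a1, the main phenol form, was at 22.7, 6.49, 2.24 and 32.3 CPM in CF and at 5.60, 11.7, 13.6 and 7.58 CPM in WT. CF libraries 0 and 3 were above all WT libraries here, and CF library 2 was below. Its log2 fold change of 0.72 (adjusted p = 0.691) was −1.15 without CF libraries 0 and 3.

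Sult6b1 was low, at 0.964, 0.959, 0.585 and 0.948 CPM in CF and at 1.10, 1.51, 2.05 and 1.16 CPM in WT. Its groups did not overlap, and its log2 fold change of −0.76 had an adjusted p of 0.282 (SE 0.30). Sult5a1, Sult4a1 and the 2 Sult1c2a loci had log2 fold changes of −0.70, −0.21, −0.31 (XLOC_049058) and 0.31 (XLOC_049065), and their groups overlapped. For Sult5a1 the highest CF library (1.02 CPM) exceeded the lowest WT library (0.953 CPM) narrowly.

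Among the glutathione transferases Gstp1 (chromosome 1, 219291679 to 219294147) stood out by level and by separation. It was at 456, 491, 396 and 537 CPM in CF and at 329, 318, 334 and 351 CPM in WT. Every CF library was above every WT library, a fold of 1.41, and the 95% interval of the log2 fold change of 0.50 ran from 0.23 to 0.76 (SE 0.12, adjusted p = 0.115). Without any 1 library it lay between 0.43 and 0.57, and without CF libraries 0 and 3 it was 0.41. Its adjusted p ranged from 0.00353 to 0.601 over the alternatives.

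The 250 bases before the Gstp1 start are shown because Gstp1 was the most abundant member and its groups did not overlap. The well-known enhancer of the rat gene lies further upstream and is not in this stretch. The stretch is from RefSeq (GRCr8, chr1:210769706-210769955, minus strand), written 5′ to 3′, and capitals mark 9 bases, starting 61 before the gene start, where the AP-1 site TGACTCA and the antioxidant response core TGACNNNGC overlap.
Gstp1: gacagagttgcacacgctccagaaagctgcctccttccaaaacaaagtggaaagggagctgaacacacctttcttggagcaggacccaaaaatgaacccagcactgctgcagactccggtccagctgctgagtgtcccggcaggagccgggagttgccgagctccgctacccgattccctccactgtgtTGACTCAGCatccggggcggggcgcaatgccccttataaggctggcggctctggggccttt
The AhR response core GCGTG is also present on the strand opposite to the one shown, at 238 bases before the start. A further match on that strand lies 30 bases after the start, outside the stretch shown. Such matches describe the letters only. Both strands of the 300-base windows were searched, and TGACTCA was found in 3 of 41 member symbols with a window in the table (Cyp3a9, Gstm5 and Gstp1) and in 4.63% of all 33469 windows. TGACNNNGC was found in 6 of 41 (14.6%) and in 12.1% of all windows. GCGTG was found in 14 of 41 (34.1%) and in 29.7% of all windows.

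**Figure D4:**
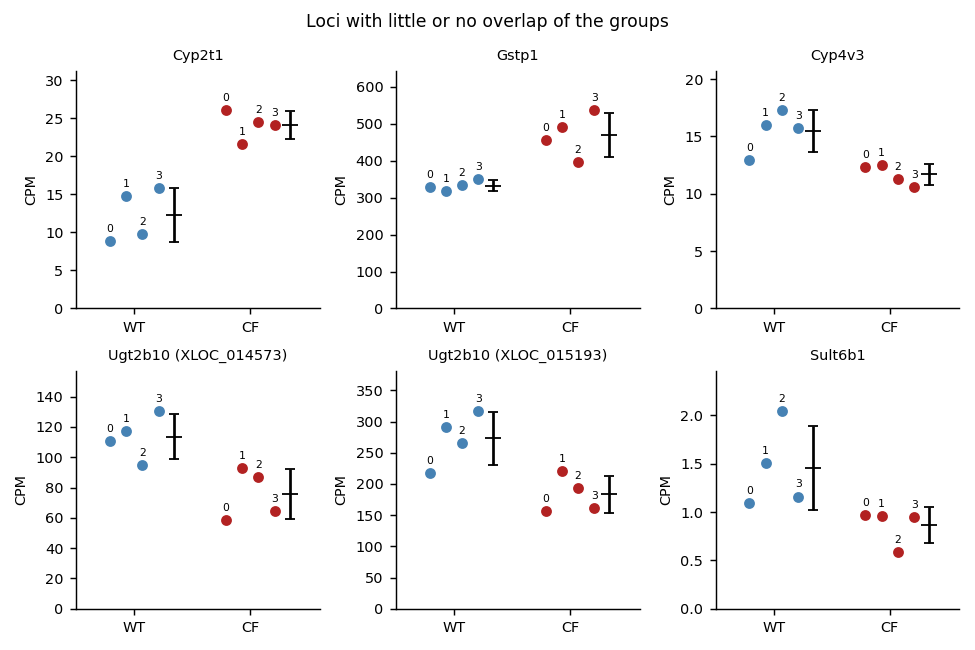
CPM per library for 6 loci with little or no overlap of the groups (points, numbered by library; blue WT, red CF; bars, mean ± SD, n = 4), on axes from 0. CF libraries are above all WT libraries for Cyp2t1 and Gstp1 and below them for Cyp4v3, Sult6b1 and the Ugt2b10 locus XLOC_014573.

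The alpha class, which also reduces lipid peroxides, showed no such separation. Gsta5 was at 82.7, 376, 175 and 116 CPM in CF and at 187, 138, 179 and 244 CPM in WT, and its log2 fold change of 0.00 (95% interval −1.02 to 1.02) was −0.59 without CF library 1. Gsta3 was at 29.5, 126, 77.9 and 75.1 CPM in CF and at 74.3, 59.8, 77.2 and 94.5 CPM in WT, with a log2 fold change of 0.01 that took a negative sign under library totals, limma-voom and both FPKM settings. Gsta4, which acts on 4-hydroxynonenal, was at 31.4 ± 10.6 CPM in CF libraries against 40.7 ± 9.38 CPM in WT libraries (log2 fold change −0.37, adjusted p = 0.495). CF library 0 was the lowest of the 8 for all 3 and CF library 1 the highest for Gsta3 and Gsta5.

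Gstk1, a mitochondrial and peroxisomal enzyme, was at 13.8, 24.6, 19.8 and 15.5 CPM in CF and at 11.7, 12.7, 15.4 and 15.2 CPM in WT (log2 fold change 0.42, SE 0.19, adjusted p = 0.321). Gstt2, a theta-class form, was at 21.2, 30.2, 23.9 and 21.0 CPM in CF and at 31.5, 27.2, 31.2 and 29.2 CPM in WT (log2 fold change −0.31, SE 0.13, adjusted p = 0.309). In each of these a single CF library lay within the WT range, library 0 for Gstk1 and library 1 for Gstt2. Gstt1 was at 3.22 ± 0.211 CPM in CF libraries against 3.498 ± 0.677 CPM in WT libraries. The 7 mu-class loci stayed within log2 fold changes of −0.22 (Gstm2) and 0.29 (Gstm3), and all had overlapping groups. Gstm1, Gstm4 and Gstm5 had 95% intervals that reached no further than −0.54 and 0.36.

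Across families many members varied widely among the CF libraries. CF library 0 was the lowest of the 8 libraries in 32 of 53 members (60.4%), beside 17.8% of all tested loci, and CF library 1 was the highest in 16 (30.2%), beside 13.6%. A range of 5-fold or more among the CF libraries, a limit chosen after the values were seen, was met by 11 members (20.8%) and by 3.95% of all tested loci. These were Cyp1a1, Cyp2b1, Cyp2c24, Cyp2j4, Cyp4a2, Cyp4b1, Gstm6l, Sult1a1, Ugt2a1, Ugt2b35 and Ugt2b37. CF library 0 was the lowest CF library in all of them but Sult1a1, so the count largely follows that library. Counts were small for Cyp4a2 (0, 9, 12 and 17 fragments in the CF libraries) and Cyp2c24 (2, 24, 12 and 20). A value of 0 in a CF library meets the limit by itself, so Cyp4a2 was counted without a defined ratio. Among the WT libraries such a range was met by 2 members (3.77%), Cyp2d2 and Cyp2w1, beside 2.92% of all tested loci. The differences between these shares were not tested.

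Enterocyte markers moved with this pattern. The mean of the members' log2 CPM, each centred on its mean over the 8 libraries, was −0.78, 0.41, −0.01 and −0.11 in the CF libraries and 0.14, 0.07, 0.04 and 0.24 in WT. The same score of the 17 enterocyte markers was −0.96, 0.55, 0.11 and 0.07 in CF and 0.11, −0.09, −0.22 and 0.43 in WT. That of the 8 ileal markers was −1.39, 0.52, 0.32 and −0.13 in CF and 0.07, 0.25, 0.02 and 0.34 in WT. CF library 0 was lowest and CF library 1 highest in all 3 scores. The part of the enterocyte markers in the members' values was not tested. Goblet cell markers moved with the groups instead, at 0.14, 0.33, 0.29 and 0.55 in CF and −0.92, −0.07, −0.27 and −0.04 in WT over 9 markers, so all CF libraries were above all WT libraries as for Gstp1 and Cyp2t1. Their summed level overlapped (CF libraries 10300 to 15170 CPM, WT libraries 6662 to 11710 CPM), and none was at 0. The score of 5 smooth muscle markers was also higher in every CF library (0.11 to 0.50) than in every WT library (−0.62 to −0.07). So was their summed level (CF 4895 to 6484 CPM, WT 2969 to 4429 CPM). The score of 4 red cell markers separated the groups the other way (CF −0.73 to −0.45, WT 0.04 to 0.92). The part of these 3 marker lists in the values of Gstp1 and Cyp2t1 was not tested either.

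CF library 3 differed from library 0 in which members were low. Its Ugt2 score (−1.28, against −1.87 for library 0) and its Cyp1 score (−1.73, against −2.60) were both low, whereas its Cyp3 score (0.59, against −0.79) and its Cyp4 score (0.49, against −0.80) were above 0. Single loci weigh heavily in these scores. In CF library 3 Cyp1a1 was at 0.997 CPM, while Cyp1b1 (21.9 CPM) was above WT library 3 (17.8 CPM). Cyp3a9 (629 CPM) and Cyp4b1 (184 CPM) had their highest value of the 8 libraries there. The enterocyte markers placed CF library 3 at 0.07, between the WT libraries. Its ileal score (−0.13) was below that of every WT library (0.02 to 0.34). Its score of 5 proximal intestine markers (−0.31) was also below every WT library (0.06 to 0.29). The ileal marker Fabp6, which carries bile acids in ileal cells and was picked out after its values were seen, was at 71.7, 1114, 888 and 166 CPM in CF and at 525 to 1072 CPM in WT. Both libraries were below all WT libraries in 3 of the 8 ileal markers. This pair was picked out after the members' values were seen, so an excess of low members was built into the choice and the shares are a description. CF libraries 0 and 3 were both below all WT libraries in 17 members (32.1%), all 5 Ugt2 loci among them, beside 15.4% of all tested loci. They were both above in 4 (7.55%; Cyp2t1, Gstp1, Sult1a1 and Sult1b1), beside 16.9%. CF libraries 1 and 2 were both above all WT libraries in 10 members (18.9%), beside 11.6%, and both below in 4 (7.55%), beside 9.82%.

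**Figure D5:**
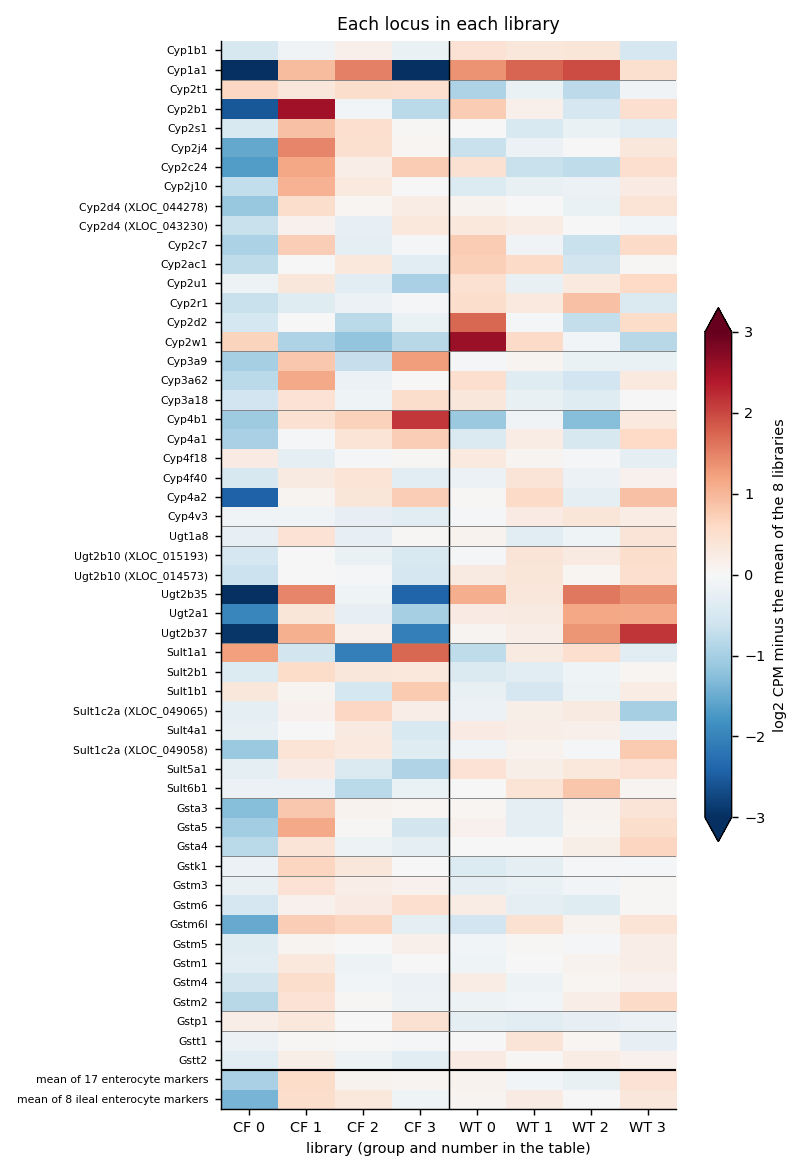
Log2 CPM of each locus in each library minus its mean over the 8 libraries (blue low, red high, colours limited at ±3), grouped by family, with the mean of 17 enterocyte and 8 ileal enterocyte markers in the 2 rows at the bottom. The column of CF library 0 is blue for most loci, and that of CF library 3 is dark blue for Cyp1a1, Ugt2b35 and Ugt2b37.

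The comparison was repeated without CF libraries 0 and 3, which were left out because of these members' values, so the counts are a description. Of the 53 members, 30 had a log2 fold change above 0 and 23 below, the median was 0.08 against −0.02 over all tested loci, and 11 (20.8%) had an unadjusted p under 0.05, beside 11.6%. A single member passed the test, Cyp2s1, with a log2 fold change of 0.94 (edgeR adjusted p = 0.0466), where 0.264% of loci did. The libraries left out held the 2 lowest CF values of Cyp2s1. The Cyp2 median was then 0.15, the Gstm median 0.18 with 7 of 7 above 0, and the Ugt2 median −0.40 with 5 of 5 below 0. Cyp2t1 was at 0.91 (adjusted p = 0.186).

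Genes that regulate and serve these enzymes were read from 6 lists, and none of their loci passed the test (edgeR, adjusted p under 0.05). DESeq2 called 1 locus of these lists, Srxn1, and limma-voom 0. Of 19 nuclear receptors and sensors, 7 had a log2 fold change above 0 and 12 below (median −0.05, beside −0.005 for all tested loci), and 2 had an unadjusted p under 0.05, Ahrr and Rxrb, a share below the 15.1% of all tested loci. Rxrb, a partner of PXR and CAR, was at 35.5 ± 4.51 CPM in CF libraries against 42.4 ± 0.813 CPM in WT libraries, without overlap (log2 fold change −0.26, adjusted p = 0.296). Nr1i3, the gene for CAR, was at 31.5 ± 7.68 CPM in CF libraries against 30.6 ± 1.30 CPM in WT libraries, and Nfe2l2, the gene for Nrf2, at 151 ± 29.6 CPM and 154 ± 17.5 CPM.

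The 10 P450 redox partners and heme genes had a median of 0.05, and 1 had an unadjusted p under 0.05. Alas1, the first enzyme of heme synthesis, was at 184 ± 40.2 CPM in CF libraries against 135 ± 13.99 CPM in WT libraries (log2 fold change 0.45, adjusted p = 0.233), and Fech, the last, at 35.3 ± 5.85 CPM and 40.6 ± 2.61 CPM. The 22 other oxidation and hydrolysis enzymes tested had a median of −0.15, with 9 above 0 and 13 below and 1 at an unadjusted p under 0.05. Ephx2, the soluble epoxide hydrolase, was at 60.4 ± 23.4 CPM in CF libraries against 114 ± 46.3 CPM in WT libraries (log2 fold change −0.92, adjusted p = 0.271). The carboxylesterase Ces2e was at 1.46 ± 0.940 CPM and 2.80 ± 1.26 CPM.

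Of 19 tested genes for conjugation cofactors and other transferases, 14 were above 0 and 5 below (median 0.04), with 4 higher and 1 lower at an unadjusted p under 0.05 (7.94% and 7.21% of all tested loci). Gss, glutathione synthetase, was at 86.5 ± 12.4 CPM in CF libraries against 65.1 ± 5.90 CPM in WT libraries (log2 fold change 0.41, SE 0.12, adjusted p = 0.178). Ggt1, which cleaves extracellular glutathione, was at 78.5 ± 26.7 CPM and 49.1 ± 6.06 CPM (log2 fold change 0.68, adjusted p = 0.241). Ugdh, which makes UDP-glucuronic acid for the Ugt enzymes, was at 125 ± 9.74 CPM and 110 ± 6.50 CPM, and Papss2, which makes PAPS for the Sult enzymes, at 842 ± 116 CPM and 908 ± 374 CPM.

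The 15 Nrf2 target genes had the highest median of the 6 lists, 0.22, with 13 above 0 and 2 below, and 6 with an unadjusted p under 0.05, all higher in CF, beside 7.94% of all tested loci. The goblet cell and smooth muscle scores were also higher in every CF library than in every WT library. The red cell score was lower in every CF library. The part of those markers in these values was not tested. Gclc, Gclm and Gsr are counted in this list and in the one before. Srxn1, sulfiredoxin, was at 51.3, 67.9, 46.6 and 47.7 CPM in CF and at 28.2, 21.1, 31.8 and 29.1 CPM in WT. Its groups did not overlap, and its log2 fold change was 0.95 (SE 0.16, adjusted p = 0.0538). Tkt, transketolase, was at 483 ± 26.7 CPM in CF libraries against 391 ± 26.0 CPM in WT libraries, also without overlap (log2 fold change 0.31, adjusted p = 0.232). Nqo1, the Nrf2 target most used as a marker, was at 12.5 ± 2.36 CPM in CF libraries against 13.5 ± 2.77 CPM in WT libraries. In 3 of the 15, Gclm, Srxn1 and Tkt, all CF libraries exceeded all WT libraries, beside 4.86% of all tested loci.

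The 12 tested drug transporters had a median of −0.11, with 4 above 0 and 8 below and 1 at an unadjusted p under 0.05. Abcc3, which exports glucuronides to the blood side, was at 49.4, 74.1, 70.3 and 71.2 CPM in CF and at 52.1, 53.9, 44.9 and 46.1 CPM in WT (log2 fold change 0.43, SE 0.14, adjusted p = 0.198). CF libraries 1, 2 and 3 were above all WT libraries. Abcc2, which exports conjugates to the lumen, was at 4.97, 64.1, 50.8 and 29.0 CPM in CF and at 71.3, 24.6, 17.04 and 56.8 CPM in WT.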

How the data were processed

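Stranded mRNA libraries of rat small intestine, 4 CF and 4 WT, were grouped as the labels give them. The authors aligned reads with STAR 2.3.1z to Rnor_6.0 and used cutadapt, StringTie and Cuffdiff, per the submitters' processing notes, which give no order or settings. The deposited table gives, per locus and library, estimated counts of fragments (expected counts) and the authors' FPKM, per the file headers. 2 further columns of values per library were not used. The table numbers libraries 0 to 3 and the titles 1 to 4, so libraries are known by group and table number only. Estimated counts, of which 5.99% were fractional, were rounded, filtered with filterByExpr (minimum count 10, minimum total 15) and tested with edgeR 4.0.16 (TMM, robust quasi-likelihood fit, Benjamini-Hochberg adjustment over all tested loci, threshold 0.05) in R 4.3.3, after a test on simulated data. FPKM were used for levels between genes and, on the scales log2(FPKM + 1) and log2(FPKM + 0.1), with limma 3.58.1. CPM are counts over TMM-scaled library sizes. DESeq2 1.42.0, limma-voom, other scalings, no low-count filter, no rounding, a replicate block and leaving out libraries were alternatives, 18 refits in all, beside other thresholds. Tables and figures were made with pandas 2.3.3 and matplotlib 3.10.9.

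The members and the gene lists were chosen with earlier results of these data known. Values were given for members with an adjusted p under 0.05, or an unadjusted p under 0.05 (at most the 16 lowest), for the 2 most abundant of each family, for the largest and smallest log2 fold change in families of 3 or more with a mean of at least 1 CPM, and for the 2 loci of lowest p in each pathway list. One locus that this rule names is not reported here. Cyp2b1, Cyp2s1, Ugt2b35, Cyp2d2, Cyp2c24, Tiparp, Fabp6 and the regulators, cofactor enzymes, markers and transporters given beside those loci lie outside that rule and were chosen after their values were seen. Promoter windows came from RefSeq (GRCr8), 41 of the 50 symbols being in its table. Locus coordinates are those of the deposited table (Rnor_6.0). No variance estimate or interval covers more than the spread among these libraries.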

Additional observations from a re-analysis of the deposited data

Results flagged for a closer look

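Each member's 4 CF values and 4 WT values were checked for a single library far from the others (its gap to the nearest one, over the range of the group, above the 95% critical value of Dixon's test). Of 106 such groups 6 met this, and chance alone gives about 1 in 20. Cyp1b1, an AhR target, was at 17.8 CPM in WT library 3 and at 32.1 to 33.9 CPM in the other WT libraries. The locus named Cyp2b1 was at 232 CPM in CF library 1 and at 6.85 to 37.8 CPM in the other CF libraries. Cyp2w1 met the limit in both groups, with 12.3 CPM in CF library 0 beside 3.35 to 4.29 CPM in the rest, and with 47.1 CPM in WT library 0 beside 4.30 to 11.5 CPM. The Sult1c2a locus XLOC_049058 was at 16.2 CPM in WT library 3 and at 8.70 to 9.98 CPM in the other WT libraries. Sult6b1 was at 0.585 CPM in CF library 2 and at 0.948 to 0.964 CPM in the other CF libraries.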

How the results depend on the processing

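The number of members past the adjusted threshold, 0 in the edgeR test, was 3 with DESeq2 and 4 without the low-count filter. It was 1 at an adjusted p under 0.10 (Cyp2t1) and 1 without CF libraries 0 and 3 (Cyp2s1), the latter a setting chosen after the data were seen. It was 0 under the other scalings, limma-voom, both FPKM settings, no rounding and each library left out. The members called by DESeq2 were Cyp2t1 (adjusted p = 0.000483), Gstp1 (0.00353) and the Ugt2b10 locus XLOC_015193 (0.0308). Without the filter edgeR called Cyp2t1 (9.03e-06), Gstp1 (0.0206) and both Ugt2b10 loci (0.0189 and 0.0181). Over all loci 28 were called by edgeR, 563 by DESeq2, 553 without the filter, 17 under library totals, 22 by limma-voom, 21 and 20 on FPKM, 47 without CF libraries 0 and 3, and 5 to 136 with a library left out. With a summed count of at least 800 as the limit, 40 members were left and their median was −0.03.

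Log2 fold changes of several members and family medians changed sign. Gsta5 and Gsta3, at 0.00 and 0.01, were at −0.10 and −0.080 under library totals, −0.21 and −0.14 in the limma-voom fit. Values taken from log2(FPKM + 0.1) were −0.21 and −0.13, those from log2(FPKM + 1) −0.21 and −0.12. Without the filter Cyp4f40 was at 0.0012 and Ugt1a8 at 0.022. Without CF libraries 0 and 3 the values were 0.29 for Cyp4f40, 0.090 for Gstm2, −0.047 for Sult1b1, −1.15 for Sult1a1 and 0.10 for Ugt1a8. With a library left out, the Gsta family median ran from −0.59 to 0.25, that of Cyp2 from −0.39 to 0.082, of Cyp4 from −0.093 to 0.089, of Gstm from −0.22 to 0.055 and of Sult from −0.11 to 0.14. In the same way Gsta5 ran from −0.59 to 0.25, Gsta3 from −0.33 to 0.29, Cyp2j4 from −0.034 to 0.87, Cyp3a62 from −0.32 to 0.41, Cyp4f40 from −0.19 to 0.10, Gstt1 from −0.21 to 0.0082 and Ugt1a8 from −0.18 to 0.13. The Sult median was −0.033 under library totals, −0.037 by limma-voom, −0.028 on log2(FPKM + 0.1) and −0.014 without CF libraries 0 and 3, where the medians of Cyp2, Cyp4 and Gstm were 0.15, 0.012 and 0.18. The Cyp4 median was 0.014 without the filter. Cyp1a1 ran from −3.0003 (limma-voom) to −0.23 (without CF libraries 0 and 3), with −2.60 on log2(FPKM + 0.1) and −2.26 with the replicate block. The cause of these changes was not tested.

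With the table's library number as a replicate block, 0 members and 11 of all loci were called, Gsta5 was at −0.24 and Gsta3 at −0.14, and the members' median was −0.15. Deviations of same-numbered CF and WT libraries had correlations of 0.07, −0.11, 0.16 and −0.01 for the numbers 0 to 3, and 2 of 4 libraries matched their own number best, so the numbers were not treated as pairs. With 4 libraries a group and CF ranges of 5-fold or more in 11 members, the intervals of those members were wide, and differences inside them were not detectable.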

Other observations

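A few family genes share a locus with another symbol in the table and were not counted as members, since their fragments could not be assigned to either. The Gsto1 and Gsto2 locus, which holds the omega-class transferases, had 156 ± 16.8 CPM in CF libraries against 155 ± 24.3 CPM in WT libraries (SD, n = 4). The Ddt and Gstt3 locus had 144 ± 31.6 CPM against 102 ± 4.77 CPM, with every CF library above every WT library (log2 fold change 0.49, SE 0.14), whereas on the authors' FPKM the groups overlapped. Its other gene, Ddt, encodes a tautomerase, so the share of the transferase in that value is not known. The Cyp4f1 and Cyp4f6 locus had 176 ± 121 CPM against 173 ± 62.7 CPM, and the Cyp4f37 and Cyp4f5 locus 19.0 ± 8.98 CPM against 18.2 ± 4.56 CPM. The locus with Cyp2d3 and Cyp2d5 had 5.02 ± 2.57 CPM against 4.75 ± 1.37 CPM.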
